A study of Homo sapiens and Mus musculus with 74 samples.

Results

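Nphs1, Podxl, Synpo, Wt1, Ptpro, Sema3g, Rgs5, Kdr and Ehd3 are 9 genes of the kidney glomerulus, 9 of 22484 coding genes in the mouse count table. They were chosen by their kidney RNA-seq and Ribo-seq values in Rpl41 knockout (KO) against wild-type (WT) mice, with results of these data known, so those values are given as a description and without a test. Each gene is shown by its annotated transcript with the longest protein. The study deleted the whole coding sequence (CDS) of Rpl41, which encodes a small basic ribosomal protein at the bridge between the subunits, in the germline of C57BL/6J mice by CRISPR-Cas9, so every cell of the animal lacks it and the KO is specific neither to podocytes nor to vessels. KO (Rpl41-/-) mice were set against WT (Rpl41+/+) mice, which were 10-week-old males for the Ribo-seq lysates, with 3 libraries per genotype in each of 5 data sets: kidney RNA-seq, kidney Ribo-seq, kidney disome-seq, brain RNA-seq and brain Ribo-seq. RNA-seq counts poly(A) RNA, Ribo-seq counts the footprints that ribosomes protect from nuclease, and disome-seq counts the longer fragments under pairs of abutting ribosomes. The study calls its Ribo-seq replicates biological, but which libraries came from the same animal, and whether every replicate is a separate animal, is not given in the sources used here, so the spread between libraries may be partly technical.

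The glomerulus filters blood through fenestrated endothelium, a basement membrane and the slit diaphragm between the foot processes of podocytes. Nphs1 encodes nephrin, the adhesion protein of the slit diaphragm. Podxl encodes podocalyxin, a negatively charged sialomucin that keeps foot processes apart, Synpo encodes synaptopodin, an actin-associated protein of foot processes and of neurons, and Ptpro encodes a receptor tyrosine phosphatase of the podocyte surface. Wt1 is the zinc finger transcription factor that podocytes keep through adult life. Kdr encodes VEGFR2, the endothelial receptor for the VEGF that podocytes secrete, Sema3g is a secreted semaphorin found in podocytes and arterial endothelium, Ehd3 is a membrane-trafficking ATPase of glomerular endothelium, and Rgs5 is a regulator of G protein signalling that marks pericytes. In whole kidney, fewer cells of a type and less RNA per cell cannot be told apart.

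The genes lie on different chromosomes of GRCm38, apart from Podxl and Ptpro, which share chromosome 6. Kdr, at 1345 amino acids, and Nphs1, at 1256, were among the longest proteins, at percentiles 94.7 and 93.7 of the coding genes, and Rgs5, at 181, was among the short ones (percentile 15.1). The median coding gene had 381 amino acids. The sequence around the start of the counted transcript is shown for the podocyte genes Nphs1 and Podxl and for the endothelial receptor Kdr, since these 3 differed in how their RNA and footprints compared. Each runs from 250 bases before to 50 bases after the start, was read from GRCm38.p6 at GENCODE M21 starts, and has the GC box (GGGCGG on either strand) in capitals.
Nphs1, chr7:30459475-30459774, plus strand: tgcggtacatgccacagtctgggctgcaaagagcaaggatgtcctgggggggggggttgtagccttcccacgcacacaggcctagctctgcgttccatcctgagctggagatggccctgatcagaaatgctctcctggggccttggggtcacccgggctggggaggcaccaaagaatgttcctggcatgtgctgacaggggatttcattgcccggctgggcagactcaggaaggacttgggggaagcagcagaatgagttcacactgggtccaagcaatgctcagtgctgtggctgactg
Podxl, chr6:31563932-31564231, minus strand: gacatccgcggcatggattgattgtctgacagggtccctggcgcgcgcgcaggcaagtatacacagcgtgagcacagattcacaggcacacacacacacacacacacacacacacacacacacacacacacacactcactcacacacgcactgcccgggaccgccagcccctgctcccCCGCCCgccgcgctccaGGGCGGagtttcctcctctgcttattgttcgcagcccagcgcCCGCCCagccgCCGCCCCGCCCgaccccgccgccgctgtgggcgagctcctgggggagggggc
Kdr, chr5:75978409-75978708, minus strand: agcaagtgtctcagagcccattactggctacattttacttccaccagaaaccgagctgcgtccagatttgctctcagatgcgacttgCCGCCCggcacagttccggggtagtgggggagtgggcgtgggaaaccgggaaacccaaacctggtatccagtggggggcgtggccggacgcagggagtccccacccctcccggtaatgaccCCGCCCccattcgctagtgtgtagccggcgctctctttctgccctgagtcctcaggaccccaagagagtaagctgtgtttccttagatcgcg
Nphs1 had no GC box, Podxl had 5, with 2 that share a letter near the start, and Kdr had 2. Of the 9 genes, 6 had at least 1 GC box in this window, against 44.3% of 22466 promoters cut in the same way. A TATA box (TATAAA) was in none of the 9, against 13.1% of promoters, and the WT1/EGR box GCGGGGGCG was also in none, against 3.92%. The E-box CANNTG was in 6, against 69.2%, and the ETS core GGAAG was in 7, against 71.9%. All motifs were searched on both strands, and the WT1/EGR box can share letters with a GC box. These matches are a description of the letters and do not show binding.

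Rpl41 itself checked the labels. It had 3695 to 7502 kidney RNA reads per WT library and 3 to 8 per KO library, and 71 to 154 and 0 to 2 disome reads. Neuron markers summed to at most 0.634 CPM in kidney RNA and at least 1394 CPM in brain RNA, and proximal tubule markers to at least 14910 and at most 12.7. Counts summed over transcripts were 44998381 to 55077048 in kidney RNA-seq, 11036643 to 42452425 in kidney Ribo-seq and 1187636 to 3018963 in disome-seq. In brain they were 84433838 to 123745890 in RNA-seq and 9498663 to 35881929 in Ribo-seq. Some libraries stood apart. In KO kidney RNA-seq replicates 2 and 3, mitochondrial rRNA took 1.76% and 1.67% of counts, against 0.436% to 0.962% in the other 4 libraries, and 83287 and 86071 transcripts had a read, against 91222 to 93091. In WT kidney Ribo-seq replicate 1, 14 pancreatic genes summed to 366 CPM (counts scaled to the library total), against 7.5 to 46.1 in the other 5 libraries, and WT kidney disome-seq replicate 1 was also the highest of its set, at 52.2. In WT brain Ribo-seq replicate 1 the same genes summed to 149 CPM, against 1.40 to 4.44 in the rest of that set. Blood genes summed to 2410 CPM in WT brain RNA-seq replicate 2, against at most 830 in the rest of that set. In WT brain Ribo-seq replicate 2 they summed to 1841 CPM, against at most 678.

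In kidney RNA, all 9 genes had lower mean levels in KO than in WT, with log2 fold changes from -1.04 to -0.36. Sema3g and Nphs1 were furthest from 0, and Kdr was nearest. The order was Sema3g, Nphs1, Rgs5, Podxl, Ptpro, Ehd3, Synpo, Wt1 and Kdr, and neighbours in it overlapped within their standard errors. Levels below are CPM scaled by TMM within the data set.

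Among the podocyte genes, Nphs1 RNA was 4.91, 5.36 and 5.17 CPM in the WT kidney libraries and 2.53, 2.91 and 2.39 in the KO libraries. Every KO library lay below every WT library, and the log2 fold change was -0.98 (SE 0.21). Podxl, the most abundant of the 9, was at 70.6, 82.4 and 70.9 CPM in WT and 56.4, 50.2 and 45.1 in KO, again without overlap, with a log2 fold change of -0.56 (SE 0.14). Ptpro lay between 3.12 and 3.97 CPM in WT and between 2.00 and 2.96 in KO, with a log2 fold change of -0.55 (SE 0.25). Synpo and Wt1 overlapped between genotypes. Synpo was at 30.0, 34.8 and 19.8 CPM in WT and 19.8, 20.6 and 22.3 in KO, so WT replicate 3 was as low as the KO libraries. Wt1 was at 3.86, 4.25 and 2.51 CPM in WT and 2.22, 3.76 and 2.17 in KO, with a log2 fold change of -0.38 (SE 0.32).

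Among the genes grouped as vessel genes, Sema3g RNA was 16.5, 21.2 and 21.0 CPM in WT and 9.66, 9.99 and 8.95 in KO. Sema3g is also found in podocytes, so this grouping does not assign its RNA to vessels. The log2 fold change of Sema3g was -1.04 (SE 0.16), and the highest KO library was well under the lowest WT library. Rgs5 was at 23.2, 26.2 and 25.3 CPM in WT and 15.8, 14.8 and 14.5 in KO, with a log2 fold change of -0.73 (SE 0.13). Ehd3 lay between 13.3 and 16.5 CPM in WT and between 9.94 and 12.0 in KO. Kdr lay between 19.3 and 25.8 CPM in WT and between 17.3 and 18.3 in KO, close together but without overlap.

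For 7 of the 9 genes every KO library was below every WT library, beside 10.1% of all 70545 transcripts tested in kidney RNA, and none passed an adjusted p of 0.05, beside 0.00992% of all transcripts, which are the 7 transcripts of Rpl41. That count rested on KO replicate 1: without this library edgeR called 12466 of 73294 transcripts, 4 of the 9 genes among them, and with all libraries DESeq2 called 465, with 3 of the 9. Since these values chose the genes, nothing is read from these counts. The median log2 fold change of the 9 was -0.55, and the median over 13906 genes with 1 transcript each was 0.10. Summed over the 9 genes, RNA came to between 185 and 220 CPM in WT libraries and between 128 and 138 in KO libraries. When KO replicates 2 and 3 were left out together, the median was -0.52, Nphs1 was at -1.02, Sema3g at -1.01, Wt1 at -0.67 and Podxl at -0.40, the last nearer to 0 by more than its standard error. The lone KO library was then assumed to vary like the WT libraries.

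**Figure D1:**
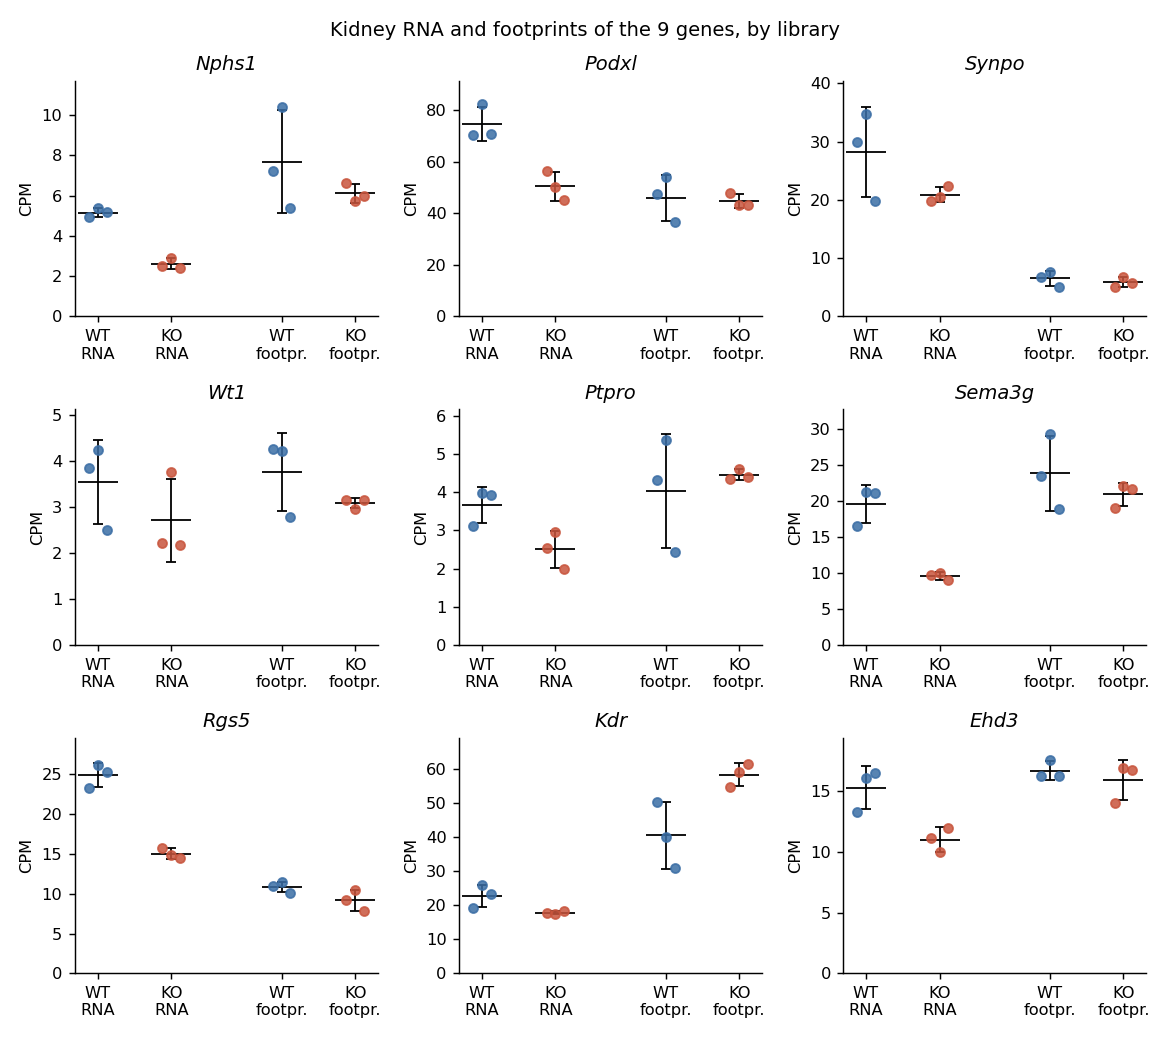
Level of each gene in kidney RNA and kidney footprints, in CPM on a linear axis that starts at 0, with 1 point per library (WT blue, KO red) and the mean and SD of 3 libraries in black. The KO RNA points of Sema3g, at 8.95 to 9.99 CPM, lie under all WT RNA points, whereas its footprints overlap, and the KO footprints of Kdr lie above its WT footprints.

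The footprints of the same genes were much closer between genotypes. Podxl footprints were 47.4, 54.3 and 36.5 CPM in WT and 47.8, 43.3 and 43.1 in KO, a log2 fold change of -0.05 (SE 0.14). Sema3g footprints were 23.4, 29.2 and 18.8 CPM in WT and 19.1, 22.0 and 21.7 in KO, a log2 fold change of -0.18 (SE 0.14), beside -1.04 in RNA. Nphs1 footprints were 7.23, 10.4 and 5.36 CPM in WT and 6.62, 5.71 and 6.00 in KO, a log2 fold change of -0.35 (SE 0.19). In all of these the KO libraries lay inside the range of the WT libraries or overlapped it. Ehd3 was at -0.05, Synpo at -0.12, Ptpro at 0.13, Rgs5 at -0.24 and Wt1 at -0.32 on the log2 scale, and each of these 5 overlapped as well.

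Kdr was the exception. Its footprints were 50.3, 40.1 and 30.9 CPM in WT and 54.6, 59.0 and 61.4 in KO. All KO libraries lay above all WT libraries, and the log2 fold change was 0.52 (SE 0.15), opposite in sign to its RNA. Without WT replicate 1, the library with pancreatic footprints, it was 0.71, and over all libraries left out in turn it ranged from 0.37 to 0.71. A gap of this kind was found for 15.5% of the 75266 transcripts tested in footprints, and 14.3% had every KO library below every WT library, which held for none of the 9. None of the 9 passed an adjusted p of 0.05 in footprints, beside 7.76% of all transcripts. That background, 5838 transcripts, fell to 517 without KO replicate 2 and to 285 without KO replicate 3. DESeq2 called 1 of the 9, beside 3497 of 75266 transcripts. With edgeR 1 of the 9 passed with 1 transcript per gene, beside 1434 of 13439. The same held with no filter beyond 1 count, beside 9936 of 127211, and without WT replicate 1, beside 2304 of 71890. Since footprints also chose the genes, nothing is read from these counts and shares. Of the 3 longest proteins, Kdr was at 0.52, Nphs1 at -0.35 and Ptpro at 0.13. A relation of these values to protein length was not tested. For the longest proteins as a set, the study reports modestly lower RNA in KO kidney and brain. It also reports rises there in footprint abundance and in footprints relative to RNA. Summed over the 9 genes, footprints came to between 128 and 180 CPM in WT libraries and between 164 and 172 in KO libraries.

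Set against RNA in one model of both assays, all 9 genes had a positive log2 change of footprints relative to RNA. It was largest in Kdr, at 0.88 (SE 0.24), and Sema3g, at 0.84 (SE 0.23), then Ptpro at 0.68, Nphs1 at 0.64, Podxl at 0.51, Rgs5 at 0.48, Ehd3 at 0.40 and Synpo at 0.30. Wt1, at 0.10 (SE 0.40), was within its error of 0 and ranged from -0.070 to 0.38 with each library left out. The median of the 9 was 0.51, and the median over 15479 genes was -0.13. This quantity holds the same RNA and footprint values that chose the genes and adds no evidence to them. None of 89685 transcripts passed an adjusted p of 0.05 for it by edgeR, although 16939 had an unadjusted p under 0.05. The count was 16331 without KO kidney RNA-seq replicate 1, 118 without WT RNA-seq replicate 2, 327 with 1 transcript per gene and 4089 by DESeq2.

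**Figure D2:**
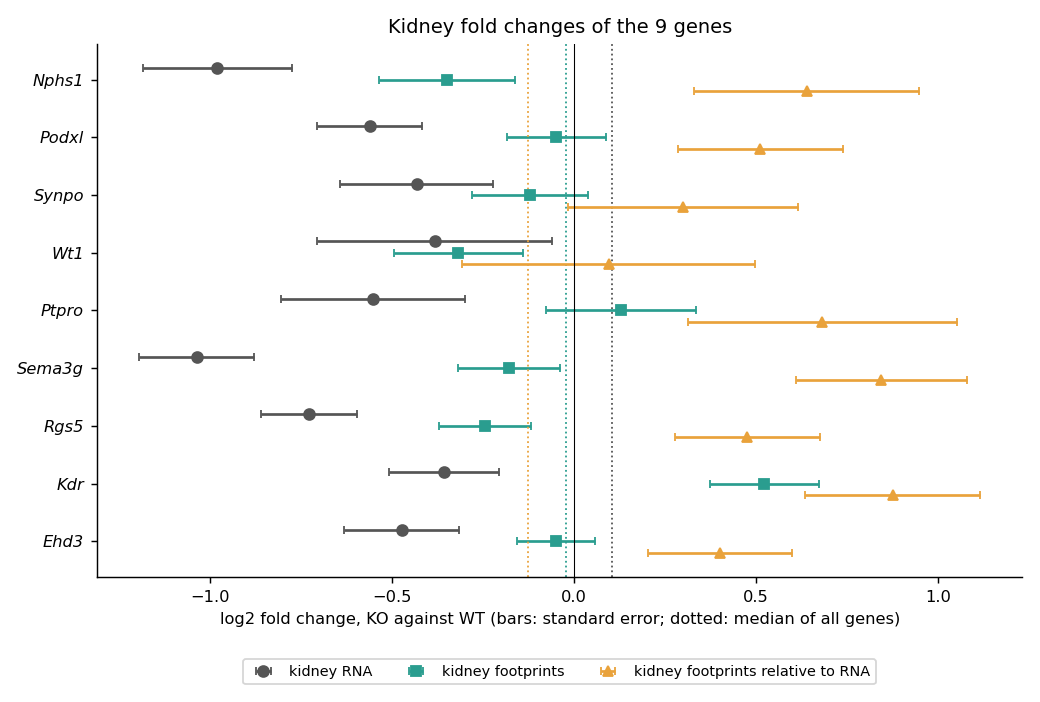
Log2 fold change of KO against WT in kidney for RNA (circles), footprints (squares) and footprints relative to RNA (triangles), with standard errors from fits of 3 libraries per group. Dotted lines mark the medians over all genes (0.10, -0.02 and -0.13). All RNA symbols lie left of 0, and in footprints Kdr, at 0.52, stands to the right of the other genes.

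The position of the reads along the transcripts differed between the assays. This was read from other annotated transcripts of the same genes, chosen after their counts were seen. For Kdr, a transcript that covers the 5′ part of the gene (ENSMUST00000202473) had 1.92%, 1.85% and 3.87% as many RNA reads as the counted transcript in the WT kidney libraries. In KO it had 1.30%, 0.137% and 0%. In footprints the same share lay between 53.1% and 55.3% in WT libraries and between 52.9% and 53.0% in KO libraries. Kidney RNA reads of Kdr thus lay almost wholly away from its 5′ part, whereas footprints were spread over both parts.

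Wt1 showed the same contrast. A Wt1 transcript with a shorter 3′ end (ENSMUST00000146842) had 14.6%, 12.6% and 22.8% as many RNA reads as the counted transcript in WT and 15.2%, 5.03% and 6.74% in KO, and 84.1% to 94.7% as many footprints in WT and 85.8% to 87.5% in KO. For Nphs1, a transcript that ends further 5′ (ENSMUST00000126297) had 67.5%, 62.6% and 66.8% in WT RNA and 64.1%, 36.6% and 50.0% in KO RNA. In all 3 genes the lowest shares were those of KO replicates 2 and 3, the libraries with more mitochondrial rRNA and fewer detected transcripts. KO replicate 1 was near the WT libraries for Wt1 and Nphs1. The part of this shift in the lower RNA values was not tested.

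**Figure D3:**
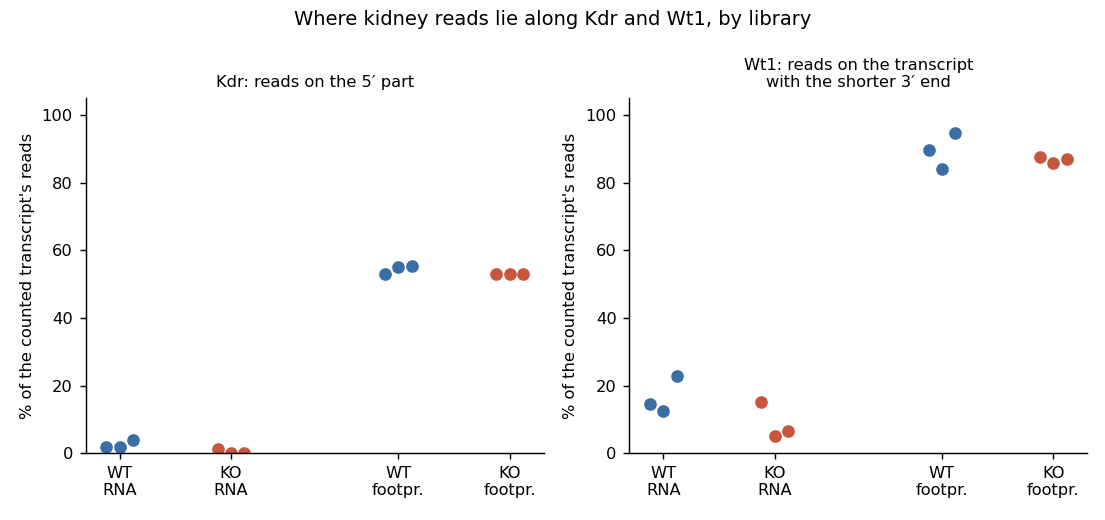
Reads counted on a transcript of the 5′ part of Kdr (left) and on a Wt1 transcript with a shorter 3′ end (right), as a percentage of the reads counted on the transcript used here, with 1 point per kidney library (WT blue, KO red). For Kdr the RNA points lie at 3.87% or below and the footprint points at 52.9% or above, and for Wt1 the lowest points, 5.03% and 6.74%, are KO RNA replicates 2 and 3.

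Kidney disomes were not used to choose the genes and were tested. Of the 9 genes, 6 had enough disome reads. Nphs1 disomes were fewer in KO, at 24, 26 and 12 reads in WT and 7, 1 and 0 in KO, or 8.30, 8.84 and 10.9 CPM against 3.25, 0.564 and 0 CPM. All KO libraries lay below all WT libraries, with a log2 fold change of -2.45 (SE 0.51, adjusted p = 0.0433 in edgeR, over all transcripts tested). Nphs1 met the read filter through its WT libraries alone, so its entry into the test and this fall are not independent. Nothing is therefore read from this p. With KO replicates 2 and 3 at or under the floor of 3 reads, how large the fall was is uncertain. The call did not hold when any library other than KO replicate 1 was left out (adjusted p from 0.0520 to 0.259), nor with 1 transcript per gene (0.0520) or counts summed per gene (0.198).

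Kdr disomes went the other way. They were 37, 51 and 7 reads in WT and 41, 49 and 35 in KO, or 12.8, 17.3 and 6.34 CPM against 19.0, 27.6 and 34.1 CPM, so that KO lay above WT in every library. The log2 fold change was 0.96 (SE 0.27, 95% interval 0.39 to 1.52), with an adjusted p of 0.173 in edgeR, which does not pass. With each library left out in turn the fold change ranged from 0.78 to 1.28, with adjusted p from 0.0481 to 0.441 in edgeR. Of these fits, only the 1 without WT replicate 2, at 1.28, passed.

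The other 4 genes with enough reads did not pass. Synpo disomes lay between 7.25 and 7.82 CPM in WT and between 4.87 and 6.76 CPM in KO, without overlap, with a log2 fold change of -0.38 (95% interval -1.07 to 0.31). Podxl was at -0.39 (-0.93 to 0.15), Rgs5 at -0.06 (-0.55 to 0.42) and Ehd3 at 0.02 (-0.69 to 0.73), and their libraries overlapped. Wt1 had 8, 10 and 1 reads in WT and 2, 1 and 0 in KO, Ptpro had 4, 6 and 0 against 1, 2 and 3, and Sema3g had 12, 21 and 5 against 13, 9 and 1, too few to test. In all, 1 of 6 genes passed, beside 0.201% of 34754 transcripts (0.132% that passed as lower in KO). Every KO library lay below every WT library for 2 of 6, beside 8.9%, and above for 1, beside 8.07%. Nphs1, the 1 that passed, met the read filter through its WT libraries alone. Its entry into the test and its fall are thus not independent. Nothing is read from the count that passed, or from the 2 of 6 below WT, beside those shares.

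**Figure D4:**
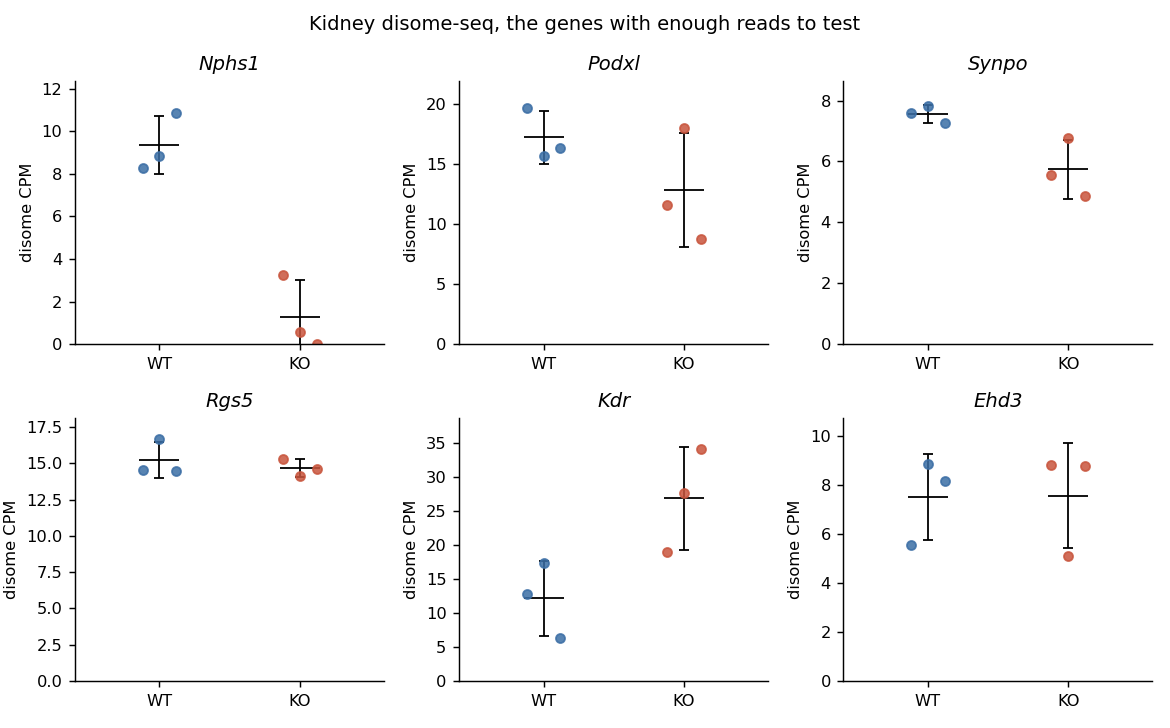
Kidney disome-seq level of the 6 genes with enough reads, in CPM on linear axes that start at 0, with 1 point per library (WT blue, KO red) and the mean and SD of 3 libraries in black. Nphs1 lies at 3.25 CPM or below in KO against 8.30 or above in WT, and Kdr lies at 19.0 or above in KO against 17.3 or below in WT.

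In WT kidney, levels per kilobase of transcript put Podxl first in RNA, at 13.9 CPM per kb, followed by Rgs5 at 6.08, Synpo at 5.47, Sema3g at 4.31, Ehd3 at 4.18 and Kdr at 3.85, with Wt1, Nphs1 and Ptpro at 1.15, 1.12 and 0.73. Since RNA reads lay towards 3′ ends, division by length lowers long transcripts. Footprints per kilobase of CDS were also highest in Podxl, at 30.5 CPM per kb, and lowest in Ptpro, at 1.10. Synpo had few footprints for its RNA: its ratio of footprints to RNA per kilobase was at percentile 2.04 of 12624 genes. Its RNA reads lay mostly at the 3′ end. A transcript there (ENSMUST00000128528) had 88.4% to 95.7% as many RNA reads as the counted transcript and 23.7% to 31.9% as many footprints. The low ratio is therefore not read as a rate of translation. Rgs5 was the highest of the 9, at percentile 78.4. Kdr, Podxl and Ehd3 had few disomes for their footprints in WT kidney, at percentiles 2.33, 4.77 and 8.07 of 7758 genes, whereas Synpo, Nphs1 and Rgs5 were at 61.2, 64.2 and 71.6.

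The same genes were tested in WT kidney against WT brain, a comparison that did not choose them. In RNA, 7 of 9 passed, 6 of them higher in kidney, beside 64.1% of all 88731 transcripts that passed and 28.3% that were higher in kidney. Nphs1 was at 4.91 to 5.36 CPM in kidney and 0.244 to 0.365 CPM in brain, a log2 fold of 4.34 (SE 0.26, adjusted p = 2.4e-07 in edgeR). Wt1 had 2, 3 and 3 reads in the brain libraries, at the floor, and was at least 114-fold higher in kidney (on CPM by library totals, with 3 reads per brain library). Sema3g was at 3.82, Podxl at 3.40, Kdr at 3.16 and Synpo at 2.00 on the log2 scale. Ptpro was lower in kidney, at -0.99 (SE 0.21, adjusted p = 0.00234 in edgeR). Rgs5, at 0.15 (95% interval -0.25 to 0.55), and Ehd3, at -0.21 (-0.55 to 0.12), did not pass, and both had at least 20 CPM in every WT brain library.

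Footprints gave 8 of 9 past the threshold, 5 of them higher in kidney and 3 lower, beside 70.9% of all transcripts, 35% higher and 35.8% lower. Nphs1 was at 4.32, Sema3g at 3.55, Wt1 at 3.33, Podxl at 2.78 and Kdr at 2.49 on the log2 scale, and Ptpro was lower in kidney at -2.14. Ehd3 was lower in kidney, at -0.49 (SE 0.12, adjusted p = 0.00196 in edgeR). Synpo had opposite signs in the 2 assays. Its footprints were 5.07 to 7.66 CPM in kidney and 23.1 to 30.3 CPM in brain, a log2 fold of -1.94 (SE 0.16, adjusted p = 9.5e-08 in edgeR), beside 2.00 in RNA. A Synpo transcript of the 3′ end (ENSMUST00000128528) held 88.4% to 95.7% as many RNA reads as the counted transcript in WT kidney and 25.6% to 67.7% in WT brain, and a transcript with a different 3′ end (ENSMUST00000115318) had 92, 91 and 120 RNA reads in WT kidney and 2995, 3019 and 3091 in WT brain. With counts summed over all Synpo transcripts the RNA fold was 0.08 (adjusted p = 0.673 in edgeR).

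Nphs1 RNA turned with the same change of counting. Summed over all Nphs1 transcripts, the log2 fold of kidney over brain was -1.13 (adjusted p = 5.2e-05 in edgeR) in place of 4.34. A transcript annotated as a retained intron near the 3′ end of the gene (ENSMUST00000131004, chr7:30484915-30486990) carried this: it had 114, 110 and 83 RNA reads in WT kidney and 3617, 3688 and 2951 in WT brain, where the counted transcript had 29, 23 and 36. Its brain footprints were 34, 30 and 40.

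**Figure D5:**
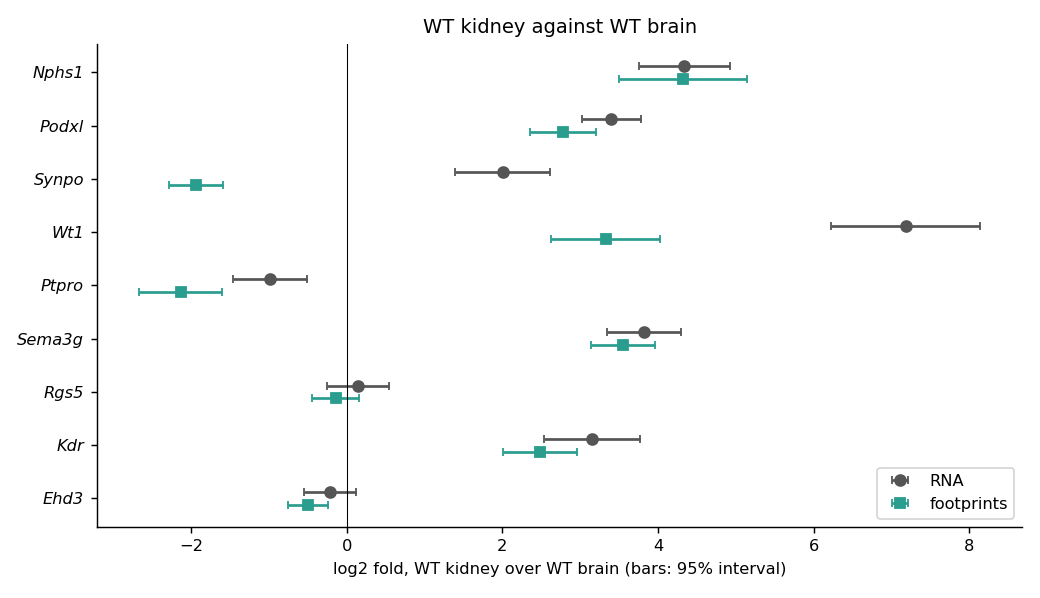
Log2 fold of WT kidney over WT brain for RNA (circles) and footprints (squares), with 95% intervals, from 3 libraries per tissue and assay. Synpo, at 2.00 in RNA and -1.94 in footprints, lies on both sides of 0, Rgs5 lies within 0.15 of 0 in both, and the fitted Wt1 RNA value rests on brain libraries at or under 3 reads.

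In brain, where some of these genes mark vessels and neurons, KO was tested against WT, and none of the 8 genes with enough RNA reads passed, beside 0.0134% of 89237 transcripts (edgeR, adjusted p at least 0.898). DESeq2 also called none. Sema3g RNA was 1.76, 1.33 and 1.99 CPM in WT and 1.33, 0.689 and 1.14 in KO, with a log2 fold change of -0.67 (95% interval -1.33 to -0.018). Podxl was at -0.45 (-0.82 to -0.088) with every KO library below every WT library, which held for 4.43% of transcripts, and Ehd3 at 0.34 (0.065 to 0.62) with every KO library above, which held for 5.08%. Kdr was at -0.61, Synpo at -0.35, and Nphs1, Ptpro and Rgs5 were within 0.09 of 0. Sema3g, Podxl and Ehd3 were the 3 with unadjusted p values under 0.05, beside 3087 of 89237 transcripts.

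Brain footprints of 7 genes were tested, and none passed by edgeR or DESeq2, beside 0.0345% of 81112 transcripts. Unadjusted p values were under 0.05 for 2, Sema3g and Rgs5, beside 10214 of 81112 transcripts. Sema3g was again lowest, at 2.28, 2.16 and 2.11 CPM in WT and 1.54, 1.01 and 1.17 in KO without overlap, a log2 fold change of -0.86 (SE 0.23, adjusted p = 0.227 in edgeR). Rgs5 was at 13.1, 11.3 and 14.1 CPM in WT and 11.3, 9.51 and 10.5 in KO, with a log2 fold change of -0.32 (SE 0.12, adjusted p = 0.326 in edgeR), and with Sema3g it was 1 of 2 genes whose KO libraries all lay below WT, beside 8.7% of transcripts. Kdr footprints in brain were at -0.42 (95% interval -0.86 to 0.015), whereas in kidney they were at 0.52. The difference between the tissues was not tested. It was not particular to Kdr: of 13 other endothelial genes, 13 were negative in brain footprints, with a median of -0.50, against 0.30 in kidney. Of the pericyte, mesangial and smooth muscle genes 6 of 10 were negative there, and of the VEGF and angiopoietin pathway 7 of 12. All 5 blood genes were negative as well, with a median of -1.34. None of these passed in edgeR. Podxl was at -0.47, Ptpro at -0.13, Synpo at 0.09 and Ehd3 at 0.13.

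Other genes of the same cells were taken from lists that share no gene with the 9. Of 18 other podocyte genes tested in kidney RNA, 14 had a negative log2 fold change, with a median of -0.42. None passed in edgeR, and 5 had an unadjusted p under 0.05, beside 11881 of 70545 transcripts. In footprints, 1 of 17 podocyte genes passed, Pla2r1, a phospholipase A2 receptor, at 0.76 (adjusted p = 0.0137 in edgeR), beside 4.75% of all transcripts called higher, and the median was 0.05. With each library left out in turn, Pla2r1 passed in 4 of 6 fits.

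Vessel genes also had lower medians in RNA than in footprints. The footprint medians were 0.30 for endothelial genes, 0.06 for pericyte, mesangial and smooth muscle genes and 0.30 for the VEGF and angiopoietin pathway. In kidney RNA 10 of 13 endothelial genes were negative, with a median of -0.33. None passed in edgeR and 4 had an unadjusted p under 0.05, beside 11881 of 70545 transcripts. In footprints 3 of 13 rose: Eng, the TGF-beta co-receptor endoglin, by 0.86, Pecam1, an endothelial junction protein, by 0.57, and Robo4, a guidance receptor, by 0.53 on the log2 scale (adjusted p from 0.0132 to 0.0399 in edgeR), beside 4.75% of all transcripts called higher. None of the 3 passed without KO Ribo-seq replicate 2 or without KO replicate 3. Of 6 fits with a library left out, Eng and Pecam1 each passed in 4 and Robo4 in 1. For 7 of 13 endothelial genes every KO footprint library lay above every WT library, beside 15.5% of all transcripts. Eng footprints were 68.0, 62.3 and 39.4 CPM in WT and 111, 99.5 and 99.4 in KO, while its RNA was 41.6, 47.8 and 42.2 in WT and 36.8, 32.0 and 31.0 in KO. Of 12 pericyte, mesangial and smooth muscle genes, 10 were negative in RNA, with a median of -0.46, and 4 rose in footprints, Cspg4, Pdgfrb, Itga8 and Pdgfra, beside the same 4.75%. Of these 4, Cspg4 passed in 6 of 6 fits with a library left out, and the others in 4. Of 12 genes of the VEGF and angiopoietin pathway, 8 were negative in RNA and 1, Nrp2, a VEGF co-receptor, rose in footprints, by 0.82, and passed in 4 of 6 such fits. Vegfa, the ligand of Kdr, was at -0.19 in RNA and -0.07 in footprints, and Flt1, its other receptor, at 0.46 and 0.60, and neither passed.

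Lists outside the glomerulus and vessels had called footprint rises too. Of 12 proximal tubule genes 2 rose, the endocytic receptors Lrp2 by 0.62 and Cubn by 0.61 on the log2 scale (adjusted p = 0.0456 and 0.0331 in edgeR). Of 6 genes of the loop of Henle and distal tubule 2 rose, the sodium-potassium-chloride cotransporter Slc12a1 by 0.82 and the magnesium channel Trpm6 by 0.83, and Pvalb fell by 0.64. Of 9 collecting duct genes 1 rose, and of 6 immune genes 3 rose. None of these passed without KO Ribo-seq replicate 3, and without KO replicate 2 only Slc12a1 did. Of 6 fits with a library left out, Lrp2 passed in 1, Cubn in 2, Slc12a1 in 5, and Trpm6 and Pvalb in 3 each.

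Since CPM is relative to the rest of each library, the tubule lists were also summed. The RNA of 12 proximal tubule genes came to 14910 to 17587 CPM in WT and 18771 to 23389 CPM in KO, most of it from Kap, an androgen-regulated protein of the proximal tubule. Without Kap the sums overlapped, at 5949 to 6359 CPM in WT and 6226 to 7172 in KO. The RNA of the loop of Henle and distal tubule list went the other way, at 1604 to 1760 CPM in WT and 1359 to 1501 in KO, and collecting duct RNA overlapped, at 207 to 209 and 193 to 230. Of the proximal tubule genes, 5 were negative in RNA and none passed in edgeR. An unadjusted p under 0.05 was found for 3, beside 11881 of 70545 transcripts. The part of these sums in the glomerular values was not tested.

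Across the 12 kidney RNA and footprint libraries, the genes nearest to the mean profile of the 9, by root mean square difference of log2 CPM deviations over 12624 genes, were Atp2a3 (0.0949), Bmp6 (0.102), Trim35 (0.106), Btd (0.113) and Sparcl1 (0.113). The median gene was at 0.368. Of the 9 themselves, Podxl was nearest to their mean, at 0.0810, and Kdr furthest, at 0.262, with 12.5% of all genes nearer than Kdr. Bmp6, a bone morphogenetic protein made by endothelium, was at -0.70 in RNA and 0.06 in footprints, and Sparcl1, a secreted matrix protein of vessels, at -0.54 and 0.11.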

How the data were processed

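The authors trimmed reads with cutadapt, filtered them with the FASTX toolkit, removed rRNA reads and aligned with STAR to the mouse transcriptome (GRCm38.p6) and genome (mm10) with multimapping reads allowed, then counted with featureCounts from Subread (versions not given in the sources used here). They deposited raw counts per transcript without normalization, and all 30 columns of the mouse table, which carry sample titles, were used. Reads shared by isoforms can enter each of them, and strand use is not stated. A second table lists human transcripts under 28 columns titled with mouse samples and was not used, so the HEK293T samples were not analysed here.

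Of 142604 transcripts, 141374 matched GENCODE M21. Members were the listed symbols, by the transcript with the longest protein. The members and lists were chosen with earlier results of these data known. Named genes were the 9 members, Rpl41, the 5 nearest genes and genes of the fixed lists. Other transcripts were chosen after their counts were seen. A further listed gene is not reported here.

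All transcripts that filterByExpr kept were tested with the quasi-likelihood test of edgeR on TMM-scaled libraries, with genotype or tissue as the only term, Benjamini-Hochberg adjustment and a threshold of 0.05. Footprints relative to RNA were the assay by genotype term. SE is the size of the log2 fold change divided by the root of the F statistic, and 95% intervals used the t distribution on the degrees of freedom of that test. Log2 CPM used a prior count of 2. A floor of 3 counts was used, which covers counting error alone. Alternatives were DESeq2, library totals, no filter beyond 1 count, a minimum of 10 counts per library, counts summed per gene, 1 transcript per gene, a replicate block and each library left out. Scripts were tested on simulated data. R 4.3.3, edgeR 4.0.16, limma 3.58.1, DESeq2 1.42.0, Python 3.11.15, pandas 2.3.3, numpy 2.4.6, scipy 1.17.1 and matplotlib 3.10.9 were used.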

Additional observations from a re-analysis of the deposited data

How the results depend on the processing

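Depth limits disomes most: 3 of the 9 genes had too few reads to test. The median RNA fold change of the 9 in kidney (-0.55) was -0.71 with library totals, which moved the median of all transcripts from -0.03 to -0.19, -0.65 with counts summed per gene, -0.67 with 1 transcript per gene, and -0.68 to -0.48 with each library left out. The lowest of these was without KO replicate 2. In footprints the median ranged from -0.24 to -0.0066 and in footprints relative to RNA from 0.42 to 0.64 with each library left out. Of the genes tested in disomes, 0 passed with counts summed per gene or 1 transcript per gene, and 0 to 1 with each library left out. Nphs1 disomes were at -4.43 without KO replicate 1. DESeq2 gave Nphs1 disomes no adjusted p, and a minimum of 10 counts removed that gene, so neither gives a count. With library totals, 1531 footprint transcripts were called higher and 2543 lower, against 3573 and 2265 with TMM.

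Signs turned for values near 0 that did not pass, apart from Nphs1 RNA in kidney against brain, which was at 4.34 and passed. In kidney footprints Podxl went to 0.088 without WT replicate 2, Ptpro to -0.084 without WT replicate 3 and Ehd3 to 0.025 without KO replicate 1, and Podxl and Ehd3 also turned with counts summed per gene. Wt1 footprints relative to RNA lay between -0.070 and -0.017 in 4 fits with a library left out. Elsewhere the turns were Ehd3 disomes to -0.061 with library totals and to -0.196, -0.182 and -0.054 without WT replicate 1, KO replicate 1 and KO replicate 3, Rgs5 disomes to 0.026 without WT replicate 2, Nphs1 brain RNA to -0.027 with library totals and with counts summed per gene, -0.041 with 1 transcript per gene, and -0.078 and -0.286 without WT or KO replicate 2, Rgs5 brain RNA to 0.115 without WT replicate 1, and Ptpro brain RNA to 0.072, Synpo brain footprints to -0.018 and Ptpro brain footprints to 0.117 without WT replicate 3. The far ends with a library left out were 0.233 for Nphs1 brain RNA, 0.197 for Synpo and -0.249 for Ptpro brain footprints. In kidney against brain, Rgs5 RNA turned to -0.10 with library totals, -0.053 with at least 10 counts and -0.070 with 1 transcript per gene, and Nphs1 RNA turned to -1.13 with counts summed per gene, carried by the retained-intron transcript described above. Ehd3 RNA passed there with library totals (-0.47), at least 10 counts (-0.41) and 1 transcript per gene (-0.43). Apart from those named in the report, the cause was not tested.

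Same-numbered KO and WT libraries did not deviate together in every pair (r = -0.024, 0.27 and -0.15 in kidney RNA), so the numbers were not taken as pairs. With a replicate block the median of the 9 was -0.56 in kidney RNA, -0.13 in footprints and 0.53 relative to RNA, and 1, 0, 0, 7 and 8 genes passed in disomes, brain RNA, brain footprints and kidney against brain in RNA and footprints, as without it. In kidney RNA against footprints every library was nearest to the one of its own number (r from 0.0745 to 0.246), a hint from the data and not the design.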
